A study of Mus musculus with 3 samples.

Results

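Macrophages live among the neurons of sensory ganglia and are carried into cultures made from them, and 10 genes used to mark these cells were followed here across 3 culture media. The genes were Csf1r, Adgre1, Aif1, Cd68, Lyz1, Lyz2, C1qa, C1qb, C1qc and Clec4d, each read from the brightest probe set annotated to its symbol. All 10 had exactly 1 such probe set, among 30142 genes that could be named on the array. Of these 10, 7 had a mean level above the background floor and 3 did not.

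RNA came from primary dorsal root ganglion neurons of male ICR mice aged 8 to 10 weeks, cultured for 72 hours in DMEM with the B27 supplement. A single array held cells given 1 µg/ml recombinant SEMA3E, a secreted guidance protein, and, with it, a SEMA3E-blocking IgG at 1 µg/ml. Another held cells given 1 µg/ml SEMA3E alone, and the last held cells in control medium, with neither protein. ICR is an outbred strain, and the labels give neither the number of animals behind a culture nor a step that removes other cells of the ganglion. With 1 array a medium there is no replicate error, so no difference below has a test, and precision is limited by there being only 3 arrays.

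Macrophages depend on the receptor tyrosine kinase CSF1R, which binds the growth factors CSF1 and IL-34. They engulf debris and microbes, digest them in lysosomes rich in lysozyme and cathepsins, and secrete C1q, the recognition protein of the classical complement pathway. In peripheral ganglia they lie around the neuronal cell bodies and respond to nerve injury. RNA of a mixed culture cannot tell fewer macrophages apart from less of a transcript in each.

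The floor was the 95th percentile of 492 vomeronasal receptor genes, which a sensory ganglion is not known to use, and lay at 43.7 intensity units (5.48 on the log2 scale, as log2 of intensity + 1). Of all named genes, 58.6% had a mean at or above it. A probe set below the floor cannot be told from background, which does not show that its transcript was absent. Pearson's r over the 17653 genes above the floor (genes, not replicates) was 0.9996 to 0.9997 between arrays. The array medians over all probe sets were 44.54 units with SEMA3E and IgG, 44.97 with SEMA3E and 44.52 in control medium. A difference was counted when it reached 1.1-fold (0.14 on the log2 scale), which is a fixed size and not a significance threshold.

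The lysozyme genes, Clec4d and Cd68 gave the differences described below, and their promoters are shown because Lyz1 and Lyz2 are neighbouring copies whose sequences are alike. Windows were found for 7 of the 10 genes in RefSeq's table (GRCm38.p6). The 250 bases before the transcription start are printed 5′ to 3′, with capitals marking matches on either strand to the PU box GAGGAA, the AP-1 site TGANTCA or the ETS site AGGAAGT.
Lyz1, chr10:117292869-117293118, minus strand: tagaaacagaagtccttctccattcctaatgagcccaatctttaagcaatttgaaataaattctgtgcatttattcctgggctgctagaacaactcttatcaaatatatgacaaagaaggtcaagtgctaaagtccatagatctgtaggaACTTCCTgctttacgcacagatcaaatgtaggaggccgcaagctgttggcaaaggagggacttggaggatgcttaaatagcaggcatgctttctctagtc
Lyz2, chr10:117282273-117282522, minus strand: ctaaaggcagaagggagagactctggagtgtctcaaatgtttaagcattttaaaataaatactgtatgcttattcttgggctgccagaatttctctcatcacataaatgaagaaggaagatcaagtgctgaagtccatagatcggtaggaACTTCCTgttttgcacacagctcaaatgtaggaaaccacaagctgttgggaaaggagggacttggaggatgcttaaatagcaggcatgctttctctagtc
Cd68, chr11:69666171-69666420, minus strand: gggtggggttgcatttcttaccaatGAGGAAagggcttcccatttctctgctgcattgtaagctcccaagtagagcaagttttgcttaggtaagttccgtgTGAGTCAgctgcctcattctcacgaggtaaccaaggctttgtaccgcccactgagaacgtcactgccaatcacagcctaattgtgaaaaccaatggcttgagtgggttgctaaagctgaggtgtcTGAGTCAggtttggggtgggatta
Clec4d, chr6:123261857-123262106, plus strand: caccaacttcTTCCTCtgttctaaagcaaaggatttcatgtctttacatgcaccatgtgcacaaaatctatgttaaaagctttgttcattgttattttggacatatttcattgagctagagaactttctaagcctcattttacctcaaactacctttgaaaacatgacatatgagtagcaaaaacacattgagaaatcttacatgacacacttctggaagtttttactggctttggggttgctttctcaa

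The Lyz1 and Lyz2 windows had 200 identical bases in an alignment of 252 columns (79.4%), with 48 mismatches and 4 gap columns. The last 50 bases before the start were identical in both. Each held an ETS match from 100 to 94 bases before the start, a motif added to the search after the windows had been read, and found in 7.69% of all 32851 promoter windows of that length. Cd68 held a PU box, which 23.3% of windows hold, and 2 AP-1 matches, a motif found in 6.75% of windows. Clec4d held a PU box, and the E-box CACGTG, present in 6.02% of windows, was in none of these 4. Of the windows not printed, those of Aif1, C1qb and C1qc held a PU box, and those of C1qb and C1qc an ETS match. These genes held identical values in all 3 arrays, so the matches are not particular to members that differed. Such a match is a run of letters and was not tied to any factor's binding.

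Csf1r, the receptor on which the lineage depends, lay below the floor at 30.4 units in all 3 arrays. Of the vomeronasal receptor genes, 80.5% lay below this level. Its ligands were well above the floor, with Csf1 at 2916 units and Il34 at 501 units in every array. Both growth factors were above the floor and their receptor was not, although Csf1r passed a lower floor, at the 75th percentile of the vomeronasal genes.

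Adgre1, which encodes the adhesion receptor F4/80, had 164 units with SEMA3E and IgG, 168 units with SEMA3E alone and 168 units in control medium. The array with IgG was slightly lower, by a log2 difference of −0.04 from each of the others, which held an identical value. Aif1, which encodes the calcium-binding protein IBA1 of macrophages and microglia, stood at 305 units in all 3 arrays. These classical markers of tissue macrophages were above the floor by 1.90 and 2.78 on the log2 scale and did not reach 1.1-fold in any comparison.

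Cd68, a heavily glycosylated protein of the lysosomal and endosomal membrane, had 1087 units with SEMA3E and IgG, 1031 units with SEMA3E alone and 1087 units in control medium. SEMA3E alone was the low array, by a log2 difference of −0.08 from control, and the array with IgG held exactly the control value. Among the members above the floor it was the single gene that was lower in the SEMA3E array than in control. CD68 marks lysosome-rich cells generally and is not confined to macrophages.

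Lyz2 encodes lysozyme M, the bacterial cell wall hydrolase of macrophages and neutrophils. It had 2348 units with SEMA3E and IgG, 2479.9 units with SEMA3E alone and 2171 units in control medium, so that all 3 arrays differed and SEMA3E alone was highest. The log2 difference was 0.19 between SEMA3E and control, −0.08 between SEMA3E with IgG and SEMA3E alone, and 0.11 between SEMA3E with IgG and control. Its array with IgG therefore lay between the other two.

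Lyz1 encodes lysozyme P, best known from Paneth cells of the gut. It had 689 units with SEMA3E and IgG, 789.8 units with SEMA3E alone and 689 units in control medium. SEMA3E alone was again the high array, by 0.20 over control on the log2 scale, and SEMA3E with IgG was lower than SEMA3E alone by the same amount (−0.20), at exactly the control value. The probes of such close relatives can read either transcript, so the 2 lysozyme genes may not be independent readings, which was not tested. Of their other neighbours on the chromosome above the floor, Yeats4 and Cpsf6 held identical values in all 3 arrays, and Mdm2 was higher by 0.02 on the log2 scale with SEMA3E and IgG than in the other arrays.

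**Figure D1:**
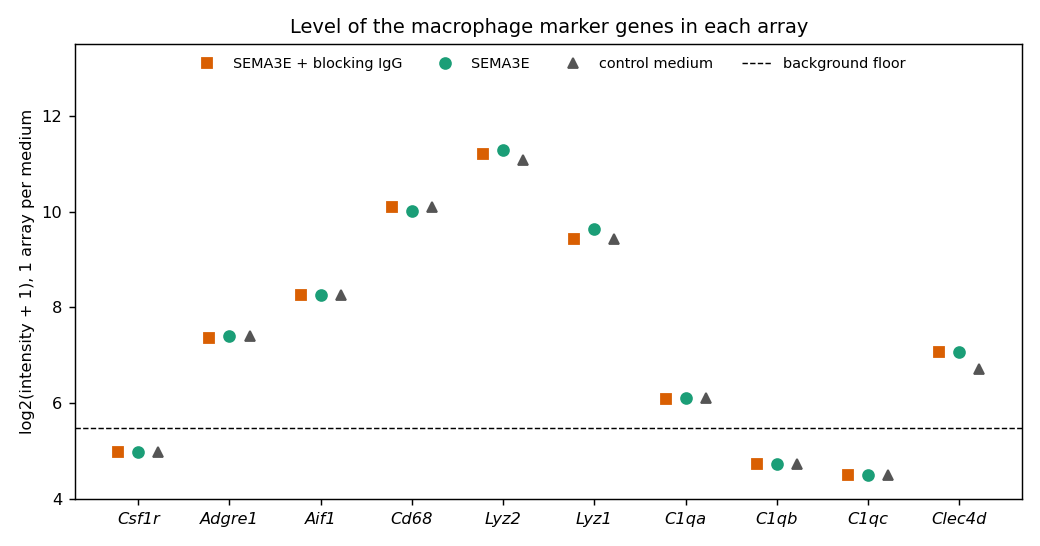
Level of each of the 10 macrophage marker genes as log2(intensity + 1) on the vertical axis, with 1 point for each array (squares SEMA3E with blocking IgG, circles SEMA3E, triangles control medium) and the background floor of 5.48 as a dashed line. Csf1r, C1qb and C1qc lie below the line in all 3 arrays, and the offsets between media are small beside the height of the brighter genes above it.

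C1q is built from 3 chains encoded by C1qa, C1qb and C1qc, which lie side by side in the RefSeq gene order and which macrophages and microglia transcribe together. C1qa had 66.5 units with SEMA3E and IgG, 68.2 units with SEMA3E alone and 68.2 units in control medium. C1qb stood at 25.4 units and C1qc at 21.8 units in all 3 arrays, both below the floor. The C1qa level exceeded the floor by 0.62 on the log2 scale, and 69.9% and 54.5% of vomeronasal receptor genes lay below C1qb and C1qc. Of the 3 chains, C1qa alone lay above background, and it did so in all 3 arrays.

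Clec4d, also called MCL or dectin-3, is a C-type lectin of myeloid cells that recognises mycobacterial glycolipids and pairs with the related receptor Mincle. It had 133 units with SEMA3E and IgG, 133 units with SEMA3E alone and 104 units in control medium. Control medium was the low array, and the arrays with SEMA3E held an identical value, so that the log2 difference from control was 0.35 for each (a ratio of 1.28). This was the largest difference among the 10 genes in any of the 3 comparisons.

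The genes of its known partners held identical values in the 3 arrays. Clec4e, which encodes Mincle and is its next protein-coding neighbour on the chromosome, stood at 64.2 units in every array, and Fcer1g, the signalling chain of these receptors, stood at 97.0 units. Downstream, the kinase gene Syk at 20.6 units and the adaptor gene Card9 at 22.4 units lay below the floor in all 3 arrays. Of 16 lectins and signalling genes of this group, 7 were above the floor, and all 7 were identical across the media. So were 74.9% of all genes above the floor.

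Between SEMA3E and control medium, the comparison that asks what SEMA3E alters, 3 of the 10 genes were at least 1.1-fold higher (Lyz1, Lyz2 and Clec4d) and 0 lower. Over the 17653 genes above the floor, 3.74% were that far apart in either direction, 1.38% higher and 2.36% lower. Of the other 7 genes, 6 were identical and Cd68 was lower by less than 1.1-fold. The median difference was 0 for the 10 genes, as for all genes above the floor. The 10 genes were chosen with these values known, so the count describes them and does not set them apart.

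Between SEMA3E with blocking IgG and SEMA3E alone, the comparison that asks what the antibody alters, 1 of the 10 was at least 1.1-fold lower (Lyz1) and 0 were higher, where 4.76% of all genes above the floor were that far apart, 2.67% higher and 2.08% lower. Counting any size, 4 genes were lower (Lyz1, Lyz2, Adgre1, C1qa), 1 was higher (Cd68) and 5 were identical. This comparison shares the SEMA3E array with the one before, so that Lyz1 and Cd68, where SEMA3E alone stood apart, take opposite signs in them through 1 array.

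Between SEMA3E with blocking IgG and control medium, 1 of the 10 was at least 1.1-fold higher (Clec4d) and 0 were lower, against 4.55% of all genes above the floor apart in either direction, 2.11% higher and 2.45% lower. Lyz2 was higher by less than that (0.11), Adgre1 and C1qa were lower by 0.04 each on the log2 scale, and 6 genes were identical. In the array with IgG, Lyz1 was thus at the control level, whereas Lyz2 was nearer SEMA3E alone (−0.08) than control (0.11). Clec4d held the same value there as with SEMA3E alone. The median was 0 here and in the comparison with SEMA3E alone, for the 10 genes and for all genes above the floor. Among the 7 members above the floor it was −0.04 on the log2 scale between SEMA3E with IgG and SEMA3E, and 0 in the other comparisons.

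**Figure D2:**
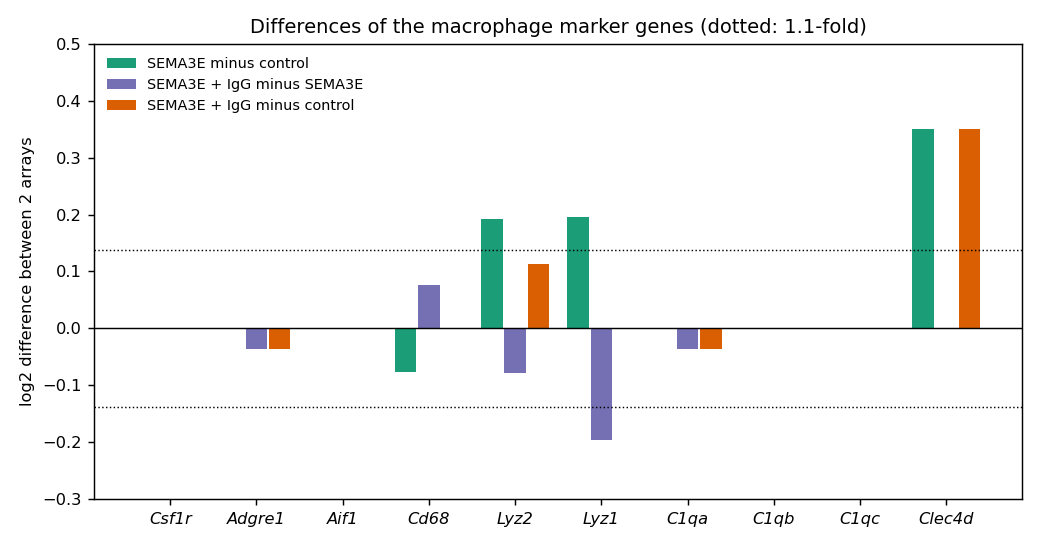
Log2 difference of each macrophage marker gene on the vertical axis in the 3 comparisons between arrays (green SEMA3E minus control, purple SEMA3E with IgG minus SEMA3E, orange SEMA3E with IgG minus control), with dotted lines at 1.1-fold. Bars pass a dotted line for Lyz1, Lyz2 and Clec4d, and a missing bar means that the 2 arrays held the same value.

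Exactly equal values were common and bear on how these genes can be read. Of the genes above the floor, 74.9% held an identical value in all 3 arrays, while SEMA3E alone stood apart in 6.14%, control in 4.63% and SEMA3E with IgG in 6.56%, and all 3 differed in 7.79%. Among the 10 members, 4 were identical throughout (Csf1r, Aif1, C1qb, C1qc), SEMA3E alone stood apart for Lyz1 and Cd68, control for Clec4d and SEMA3E with IgG for Adgre1 and C1qa, and all 3 arrays differed for Lyz2.

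Values were also shared between genes. In control medium 68.3% of the 65956 probe sets held a value found exactly in another probe set. The C1qc value was held by 450 other probe sets of that array, that of C1qb by 32, that of Csf1r by 17, that of Aif1 by 15 and that of Adgre1 by 10, including Tyrobp, an adaptor gene of myeloid receptors. The values of Lyz1, Lyz2, Cd68 and Clec4d were held by 0 other probe sets there. An identical value in 3 arrays is not evidence that the RNA was equal, and how these equal values arose was not tested.

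**Figure D3:**
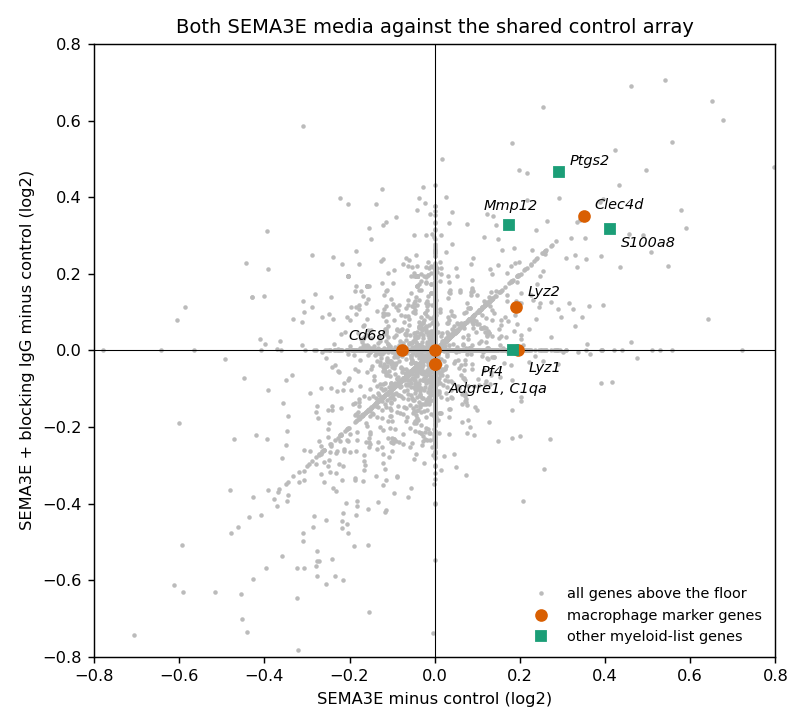
Log2 difference from control of SEMA3E (horizontal axis) and of SEMA3E with blocking IgG (vertical axis) for the genes above the floor (grey), the 7 macrophage marker genes above it (orange circles, with Aif1 at the origin) and 4 genes of the other myeloid lists (green squares). Points share the control array, 21 grey points lie outside the plotted range of ±0.8, and the lines of grey points along 0 and the diagonal are genes for which 2 of the arrays were equal.

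Further genes of macrophage biology were read in the same arrays. Of 124 further genes of macrophage growth, phagocytosis, scavenging, lysosomes, complement, lectins and activation, 111 were measured and 64 lay above the floor, of which 53 (82.8%) were identical in all 3 arrays, against 74.9% of all genes above the floor. Between SEMA3E and control, 3 of the 64 were at least 1.1-fold higher and 0 lower (4.69%). Between SEMA3E with IgG and SEMA3E alone 2 were higher and 2 lower (6.25%), and between SEMA3E with IgG and control 2 were higher and 1 lower (4.69%). These shares lie near those of all genes given above, and the median was 0 in each comparison.

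Of 14 measured growth factors, their receptors and transcription factors of the lineage, 9 were above the floor and all 9 held identical values, as did 74.9% of all genes above it, while Irf8, a factor of monocyte development, lay below it at 33.4 units. Of 22 phagocytosis and Fc receptor genes 10 were above the floor and 9 of these were identical. The 12 below it included Ptprc, the pan-leukocyte antigen CD45, at 26.4 units, and Itgam, the integrin CD11b, at 43.7 units, just under the floor. Among the 10 above it, Cybb stood at 216 units, Tyrobp at 168 units and Coro1a at 132 units in every array. Fcer1g stood at 97.0 units, Fcgr3 at 77.1 units and Itgb2 at 64.2 units. Axl, a receptor for dying cells that fibroblasts and glia also carry, was at 5389 units with SEMA3E and IgG, 5354 units with SEMA3E alone and 5295 units in control medium, under 1.1-fold.

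Among 16 scavenger receptor and resident macrophage genes, 7 were above the floor, and 5 of these were identical in all 3 arrays. Pf4, a chemokine of platelets that tissue macrophages also make, had 236 units with SEMA3E and IgG, 269 units with SEMA3E alone and 236 units in control medium. Its log2 differences of 0.18 for SEMA3E against control and −0.18 for SEMA3E with IgG against SEMA3E had the form seen for Lyz1. The fractalkine receptor gene Cx3cr1 had the same form at a smaller size, 0.04 and −0.04. SEMA3E alone stood apart, in either direction, for 6.14% of all genes above the floor, and for Cd68 with the opposite signs. The mannose receptor gene Mrc1 lay below the floor at 36.8 units.

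In the activation list 8 of 16 genes were above the floor, of which 6 were identical in all 3 arrays and 2 reached 1.1-fold in each comparison. Of all genes above the floor, 3.74% did so between SEMA3E and control. The shares were 4.76% between SEMA3E with IgG and SEMA3E, and 4.55% between SEMA3E with IgG and control. Mmp12, the macrophage elastase, had 2841 units with SEMA3E and IgG, 2554 units with SEMA3E alone and 2263 units in control medium. Ptgs2, the inducible cyclooxygenase, had 371 units with SEMA3E and IgG, 329 units with SEMA3E alone and 269 units in control medium. Each was lowest in control and highest with the IgG, with log2 differences between SEMA3E with IgG and control of 0.33 for Mmp12 and 0.47 for Ptgs2. The 6 identical genes above the floor were Il6 (115 units), Arg1 (110 units), Cd80 (98.5 units), Acod1 (74.6 units), Slc11a1 (72.2 units) and Il1b (48.0 units). Nos2, Tnf, Il12b and Il10 were among the 8 genes below the floor.

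Of 18 lysosomal genes 17 were above the floor, 13 were identical and 0 reached 1.1-fold in any comparison. Over all genes above the floor, 74.9% were identical and 3.74% to 4.76% reached 1.1-fold in a comparison. Gpnmb, a glycoprotein of lipid-laden macrophages that other cells also make, was 0.09 higher with SEMA3E and IgG than in the other arrays on the log2 scale. Of 13 complement genes 7 were above the floor. Cd59a, an inhibitor of the membrane attack complex that many cell types carry, was 0.21 lower with SEMA3E and IgG than in control, a log2 difference of −0.21, and the anaphylatoxin receptor gene C3ar1 was 0.08 higher in each SEMA3E medium.

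**Figure D4:**
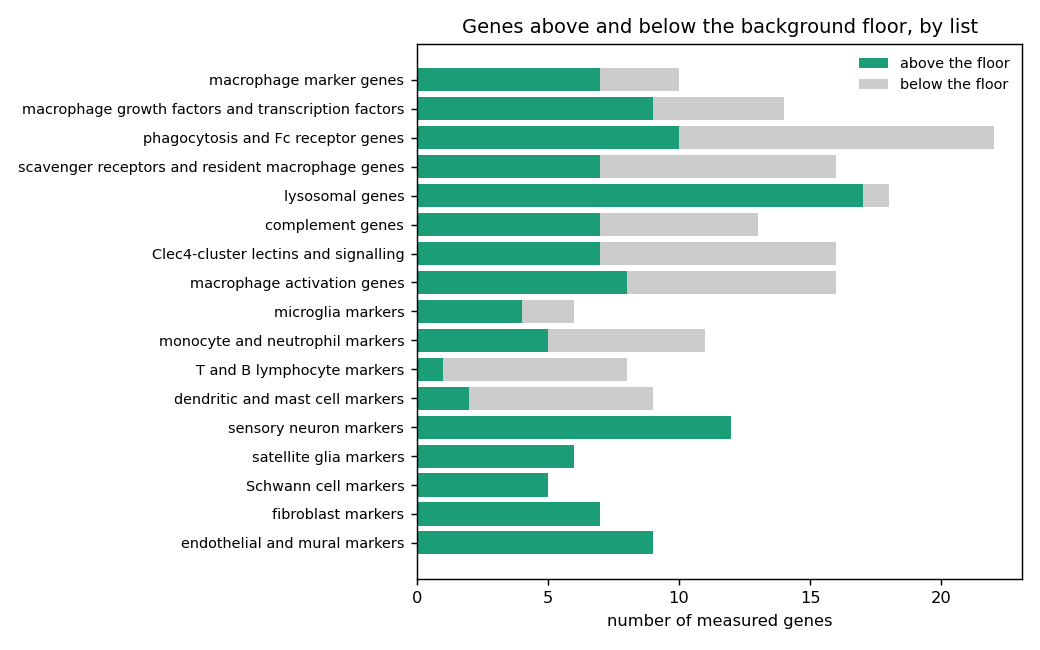
Number of measured genes of each list on the horizontal axis, above the background floor in green and below it in grey. The lists of neurons, satellite glia, Schwann cells, fibroblasts and vessels lie wholly above the floor, whereas the macrophage marker genes have 3 of 10 below it and the lymphocyte list 7 of 8.

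Markers of other cells that such cultures can hold were read in the same arrays. Of 11 monocyte and neutrophil markers 5 were above the floor. The neutrophil genes Ly6g, Mpo and Elane were not, whereas the granule protein genes Camp and Ngp were. Camp stood at 187 units in all 3 arrays, and Ngp had 109.6 units with SEMA3E and IgG, 120.6 units with SEMA3E alone and 120.6 units in control medium. The summed level of the list was 1384 units with SEMA3E and IgG, 1519 units with SEMA3E alone and 1412 units in control medium. It was highest with SEMA3E alone and, unlike the level of Lyz2, lowest with SEMA3E and IgG. S100a8, an alarmin of neutrophils and monocytes, had 364 units with SEMA3E and IgG, 388 units with SEMA3E alone and 292 units in control medium, a log2 difference of 0.41 between SEMA3E and control. Its partner S100a9 had 0.15 there, and −0.22 between SEMA3E with IgG and SEMA3E. Ly6c2, of classical monocytes, had −0.05 and −0.23 in those comparisons, so it was not higher with SEMA3E alone than in control.

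The 10 macrophage marker genes summed to 4870.4 units with SEMA3E and IgG, 5053 units with SEMA3E alone and 4671 units in control medium. Without Lyz1 and Lyz2 the other 8 summed to 1833 units with SEMA3E and IgG, 1783 units with SEMA3E alone and 1810.4 units in control medium. Cd68 set the order of that sum, since without it too the remaining 7 summed to 746 units with SEMA3E and IgG, 752 units with SEMA3E alone and 723 units in control medium. The summed level was thus highest with SEMA3E alone in the first and last of these sums and lowest there in the other. In the last sum Clec4d was the only gene that differed between SEMA3E alone (133 units) and control medium (104 units). The part of monocytes, neutrophils or other cells in these differences was not tested.

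Neuronal and structural cell markers lay above the floor throughout. All 12 sensory neuron markers were above the floor, and their sum was 425507 units with SEMA3E and IgG, 427719 units with SEMA3E alone and 433681 units in control medium. Bright genes weigh most in this sum, and Uchl1 held 205992 units in every array. Nefl had 88569 units with SEMA3E alone and 92650 units in control medium, under 1.1-fold. Between these arrays 6 of the 12 were lower and 0 higher, and 4 were identical in all 3 arrays. Tubb3, the neuronal beta-tubulin, was lower by a log2 difference of −0.16 in each SEMA3E medium than in control. The satellite glial list summed to 14106 units with SEMA3E and IgG, 14533 units with SEMA3E alone and 14695 units in control medium, with 3 of 6 genes at least 1.1-fold lower in SEMA3E than in control (Fbln5 −0.28, Atp1b2 −0.26, Kcnj10 −0.24), where 2.36% of all genes above the floor were. The list was not uniform: Fabp7 was higher in SEMA3E than in control by 0.13, under 1.1-fold. Cdh19 and Apoe held identical values in all 3 arrays. Between the same arrays fibroblast markers went both ways (Mgp 0.25, Ogn −0.57). The part of these cells in the macrophage marker values was not tested.

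Genes with the most similar pattern were sought for each member that reached 1.1-fold, as the smallest Euclidean distance in the 2 log2 differences from control, among 11922 other genes over 3 arrays. For Lyz1 the nearest were Muc19, at a distance of 0.0015, and Pf4 at 0.011, then Spata31d1b, Ppil6 and Tmem247. For Lyz2 they were Mrgprb5 at 0.016, Rcor3 at 0.056, Sprr4, Mpeg1 and Has2, of which Mpeg1 encodes a pore-forming protein of macrophages. For Clec4d they were S100a4 at 0.056, S100a8 at 0.069, Nqo1, Cbl and Ptgs2. With 3 arrays a likeness of this kind is a description and many genes lie close.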

How the data were processed

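RNA from 3 cultures, 1 for each medium, was biotinylated for the arrays with a GeneChip WT Pico kit, per the labels. The values used are the linear intensities deposited by the authors, and the submitters' processing notes name Affymetrix Expression Console. Its version, how probes were summarised, how arrays were normalized and which genome build applied are items not given in the sources used here. A median-polish summary over few arrays can return exactly equal values, and whether it was used is not given.

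Probe sets were named by the platform annotation: of 65956, 30604 had a single symbol, 2146 several and 33206 none. Through gene numbers, 827 symbols were updated with a mouse RefSeq table (GRCm38.p6). The brightest probe set per gene was kept (355 genes had several). Differences are of log2(intensity + 1) between 2 arrays, with no test. All 10 members were named, and in each other list up to 3 genes above the floor at least 1.1-fold apart in each comparison. Many more genes of these lists were named outside that rule, after their values were seen. The members and lists were chosen with earlier results of these data known. The counting step was run on copies of the control array into which known shifts above 1.1-fold had been put, without noise. This checks the counting only and does not bear on the differences reported. Python 3.11.15, numpy 2.4.6, pandas 2.3.3, statsmodels 0.14.6 and matplotlib 3.10.9 were used.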

Additional observations from a re-analysis of the deposited data

How the results depend on the processing

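The counts of macrophage marker genes at least 1.1-fold apart were 3, 1 and 1 in the comparisons of SEMA3E with control, SEMA3E with IgG with SEMA3E, and SEMA3E with IgG with control. They kept these values after median centring, loess and quantile normalization, and with a pseudocount of 16 or none. These scalings shifted the median difference of genes above the floor by at most 0.0062 on the log2 scale. They thus left little room for the counts to change. The mean of all probe sets of a gene could not change them, since each member had 1 probe set. Nor could counting only members above the floor, since those below it held identical values in all 3 arrays. The fold itself moved them. At a ratio of at least 5 to 4, 1 gene was left in the comparison of SEMA3E with control (Clec4d), against 0.731% of all genes above the floor, 0 between SEMA3E with IgG and SEMA3E (0.782% of all) and 1 between SEMA3E with IgG and control (0.884% of all). At a ratio of at least 21 to 20 there were 4 genes between SEMA3E and control, 3 higher and 1 lower (7.93% of all), 3 between SEMA3E with IgG and SEMA3E (9.44% of all) and 2 between SEMA3E with IgG and control (8.80% of all). All 180 recomputed differences of single members under the scalings, pseudocounts and probe set rule stayed on their side of 1.1-fold. Those under the probe set rule, and those of equal values under the pseudocounts, could not have moved. With the floor at the 75th percentile of vomeronasal genes, chosen after the data were seen, 8 members lay above it, Csf1r being the added gene, and with the 99th 7 did. No paired analysis was possible because each medium has 1 array. Precision is limited by that number, and the levels of C1qa, C1qb, C1qc and Csf1r by their closeness to background.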

Other observations

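Markers of resident microglia and of lymphoid and dendritic cells did not differ by 1.1-fold above the floor. Of 6 microglial genes 4 were above the floor (Olfml3, Sall1, Tmem119 and Siglech). All 4 were identical in the 3 arrays, as were 74.9% of all genes above it. Gpr34 and P2ry12, the purinergic receptor of resting microglia, lay below the floor. Of 8 lymphocyte genes 1 was above the floor, and the T cell genes Cd3e, Cd3d, Cd4 and Cd8a were below. Of 9 dendritic and mast cell genes 2 were above it, among them Kit, which some sensory neurons also transcribe, with log2 differences of −0.09 between SEMA3E and control and 0.02 between SEMA3E with IgG and SEMA3E. Of 9 endothelial and mural genes 8 were identical in all 3 arrays, against 74.9% of all genes above the floor. The tight junction gene Cldn5 was 0.16 lower in each SEMA3E medium than in control, a log2 difference of −0.16.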
